A study of Mus musculus with 9 samples.

Results

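Long intergenic noncoding RNAs (lincRNAs) are transcripts with no annotated coding sequence that arise from genes of their own. The 124 lincRNAs described here were chosen by the gene type lincRNA in the GENCODE M1 annotation and by their level, a mean normalized count of 20 or more in each of the deposited tables. Malat1, Neat1, Gas5 and all symbols starting with Snhg were left out. The annotation held 1273 lincRNA genes, 448 of them were listed in either table among 13643 genes in all, and 130 passed the minimum of 20 in both. Of these 130, 6 were left out by name (Gas5, Snhg1, Snhg4, Snhg5, Snhg7 and Snhg12). Malat1 and Neat1 carry another gene type in this annotation, processed transcript, and were not lincRNAs by type.

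RNA-seq was performed on AML12, an established line of mouse hepatocytes. The cells carried a control shRNA (n = 3 libraries) or were infected for 5 days with lentivirus holding either of 2 short hairpins against Srrm2, here Srrm2 shRNA 1 (n = 3) and Srrm2 shRNA 2 (n = 3). Srrm2 encodes a scaffold protein of nuclear speckles, the nuclear bodies that store splicing factors. All groups share the cell line and its medium with insulin, transferrin, selenium and dexamethasone. The labels do not say whether the libraries of a group came from separate cultures.

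The deposited values used here were pooled. Each table gives 1 mean normalized count per gene over 6 libraries, the control libraries together with those of 1 hairpin, so no value per library, standard deviation or test against control could be had from them. The tables were normalized separately. Their ratio was therefore centred on the median of the 7757 genes whose mean count reached 100 in both tables, where the shRNA 2 table was 1.05 times the shRNA 1 table. With the same control libraries in both tables, the centred ratio is a lower bound of the fold between the means of the hairpin groups. It does not say whether a lincRNA was above or below control. It follows that Srrm2 itself, at 3428 and 3759 mean normalized counts in the shRNA 1 and shRNA 2 tables, gives no check of the knockdown here.

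The tables carried the markers of the labelled cell type. Of 10 hepatocyte markers, 8 passed the minimum of 20, among them Alb (albumin) at 2151 and 1814 mean normalized counts and Hnf4a (a hepatocyte transcription factor) at 1498 and 1624. Tf was not listed and Afp stayed below 20. The cholangiocyte list had 4 of 5 markers past the minimum, with Krt19 at 2851 and 2753. The macrophage list had 2 of 5 (Cd68 and Csf1r, at 25.1 and 26.2 in the shRNA 1 table), and the endothelial and stellate lists had 0 of 5 each. Their part in any level given below was not tested. In such bulk samples fewer cells of a type and less RNA per cell cannot be told apart.

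LincRNAs are capped, spliced and in large part polyadenylated by the same machinery as mRNAs, and many stay in the nucleus. Some act on chromatin or on neighbouring genes, some bind microRNAs, and others serve as precursors from whose introns or exons small RNAs are cut. Many start next to the promoter of a coding gene and are transcribed away from it. The sequences shown first are those that make these classes visible: microRNAs within the lincRNAs, a microRNA site, promoters and polyadenylation signals.

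Hosts of microRNAs were located by searching each RefSeq hairpin of the GRCm38.p6 table in the mm9 sequence of the members on their own strand. The mature sequences below, given with the seed (bases 2 to 8) in capitals, come from Mir29b-2 and Mir29c in A330023F24Rik, from Mir16-1 in Dleu2 and from Mir374b and Mir421 in B230206F22Rik, the gene now called Ftx. Both miR-29 arms share the seed AGCACCA. The seed of miR-16-5p is AGCAGCA.
miR-29b-3p: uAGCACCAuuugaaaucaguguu
miR-29c-3p: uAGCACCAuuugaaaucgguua
miR-16-5p: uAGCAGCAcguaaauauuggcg
miR-374b-5p: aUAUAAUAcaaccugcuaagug
miR-421-5p: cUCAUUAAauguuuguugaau

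In mm9 the Mir29b-2 hairpin lies at chr1:196863234-196863314 and the Mir29c hairpin at chr1:196863741-196863828, both on the plus strand and within an exon of A330023F24Rik. The Mir16-1 hairpin lies in an intron of Dleu2 at chr14:62250717-62250809 on the minus strand. Mir374b (chrX:100768399-100768493) and Mir421 (chrX:100768260-100768335) lie in an intron of Ftx, on the minus strand.

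1700020I14Rik, now named Oip5os1 and known as Cyrano, holds a site of extensive pairing to miR-7 and is known for promoting the decay of that microRNA. The longest annotated transcript, of 8300 bases, had 2 matches to the miR-7a seed. At the better one, bases 2952 to 2958 matched the seed, and all 11 bases opposite positions 13 to 23 of the microRNA matched as well. The site is printed with these paired stretches in capitals, after miR-7a-5p with its seed in capitals. A seed match alone was found in 25 of the 124 members (20.2%) and so is no mark of this gene.
miR-7a-5p: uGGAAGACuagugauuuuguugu
Oip5os1 site: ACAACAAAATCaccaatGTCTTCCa

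Promoters are shown for the member with the most counts (Tug1), whose start lies 682 bases from that of the coding gene Morc2a, and for the members with the lowest and the highest ratio between the tables (Gm807 and 2610307P16Rik). Each window runs from 250 bases before to 50 bases after the 5′ end of the gene in mm9, on the gene's strand, with CG dinucleotides in capitals.
Tug1, chr11:3548766-3549065, minus strand: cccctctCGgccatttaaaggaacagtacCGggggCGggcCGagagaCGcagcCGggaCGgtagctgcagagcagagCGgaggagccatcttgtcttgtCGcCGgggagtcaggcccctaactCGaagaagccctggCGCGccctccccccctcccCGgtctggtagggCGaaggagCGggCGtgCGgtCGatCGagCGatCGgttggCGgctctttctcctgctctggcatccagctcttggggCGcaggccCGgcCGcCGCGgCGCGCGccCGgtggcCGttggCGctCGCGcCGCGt
Gm807, chr13:99870411-99870710, plus strand: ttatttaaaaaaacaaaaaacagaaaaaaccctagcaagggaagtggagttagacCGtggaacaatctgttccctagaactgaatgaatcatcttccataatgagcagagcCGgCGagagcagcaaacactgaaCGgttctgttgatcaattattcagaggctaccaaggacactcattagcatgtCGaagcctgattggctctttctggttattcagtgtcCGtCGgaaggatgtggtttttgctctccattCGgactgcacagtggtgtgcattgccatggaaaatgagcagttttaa
2610307P16Rik, chr13:28977440-28977739, minus strand: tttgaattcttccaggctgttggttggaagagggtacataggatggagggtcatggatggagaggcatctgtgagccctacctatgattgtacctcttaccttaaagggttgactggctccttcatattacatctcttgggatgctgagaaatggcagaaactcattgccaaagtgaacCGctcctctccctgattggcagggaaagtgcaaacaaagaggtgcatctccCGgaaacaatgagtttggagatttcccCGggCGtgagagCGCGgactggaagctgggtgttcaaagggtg

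The window of Tug1 held 38 CG dinucleotides, and those of Gm807 and 2610307P16Rik held 8 and 6. The GC box core GGGCGG was present, on either strand, in the window of Tug1 and in neither of the other windows. It was found in 54.0% of all 124 member windows, against 62.8% of the windows of the 10435 coding genes past the minimum and 43.4% of those of all 22380 coding genes. CCAAT was present in the windows of Gm807 and 2610307P16Rik, and was found in 39.5% of member windows and 37.9% of all coding windows. TATAAA was in none of these 3 windows, and in 11.3% of member windows. Both strands were searched for each motif, and none of the 3 contains another.

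The last set shows stretches near the 3′ ends of abundant or well known members, with the polyadenylation hexamer in capitals. At most 30 bases are printed, beginning shortly before the hexamer, so not all stretches reach the end of the transcript. In Oip5os1, for example, 29 bases follow the hexamer.
Tug1: aaccAATAAAttcccctttttgtttaagtt
Oip5os1: tagcAATAAAgcatgagcagagaatgcact
Pvt1: tcagAATAAAgaaaaatttacatgtct
Dleu2: gtttAATAAAtgaggttcttaagttggtat
Firre: aactAATAAAattgttcttgagtttccttc
Airn: cattATTAAAatatttttttcatgcccatt

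AATAAA was the hexamer in 5 of them and ATTAAA in Airn. Over all members, 71 of 124 (57.3%) had either hexamer in the last 50 bases of their longest transcript, against 77.5% of the coding genes past the minimum and 55.1% of the 1149 other lincRNA genes of the annotation. Gm16197, now Trp53cor1 and known as lincRNA-p21, had neither in that window. The libraries are described both as made from total RNA and as enriched for polyadenylated RNA, and the part of this in the levels was not tested.

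The members were low in abundance. The minimum chose them by this level, so the values are a description. Their mean normalized counts ran from 20.4 to 1253 with a median of 53.3 in the shRNA 1 table, and from 20.3 to 1218 with a median of 55.1 in the shRNA 2 table. They made up 0.215% and 0.216% of the summed mean counts of the 2 tables. Per kb of exon their median level was 17.3 and 18.8 mean normalized counts, while coding genes past the same minimum had 64.3 and 67.3. The coding median per kb was exceeded by 15 members in each of the tables. The 3 members with the most counts held 22.0% and 22.1% of the members' sum.

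Just inside the minimum lay E230016M11Rik (23.1 and 20.3 mean normalized counts in the shRNA 1 and shRNA 2 tables), Gm17644 (20.4 and 26.1) and 2810002D19Rik (26.6 and 20.4). Just outside it lay R74862 (18.6 and 18.9), 4921531C22Rik (18.5 and 19.2) and Gm10606 (21.0 and 18.6). The members near the minimum and the genes left out thus differ by a few counts.

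Per kb of exon, 2410006H16Rik had the highest level, at 443 mean normalized counts per kb in the shRNA 1 table and 547 in the shRNA 2 table. It is a short host gene of 462 exonic bases whose span contains the annotated snoRNA genes Snord49a, Snord49b and Snord65. BC029722 came next with 198 and 186 per kb, and RefSeq lists it as protein coding. Tug1, a conserved and widely expressed lincRNA, followed with 188 and 183 per kb and had the highest mean counts of all members, 1253 and 1218. Tug1 lies at chr11:3539797-3548815 in mm9, on the minus strand.

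Gm17517 reached 166 and 184 mean normalized counts per kb. This gene on chromosome 8 overlaps Galntl6 on the opposite strand. Airn, the imprinted antisense transcript known for silencing Igf2r on the paternal chromosome, had 155 and 170 per kb, or 557 and 609 mean counts. Airn overlaps Igf2r, Gm17592 and Mas1 on the opposite strand, and Igf2r itself had 1025 and 1270 mean counts. The study's methods describe the libraries as strand-specific, but the strand setting of the counting is not given in the sources used here. The reads of such a pair therefore cannot be assigned with certainty.

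6720401G13Rik is now named Firre, an X-linked nuclear RNA known for contacts between chromosomes. Its level was 145 and 146 per kb, the nearest to equal in both tables among the 10 most abundant members before centring. After centring its log2 ratio was -0.06, and others of the 10 lay nearer to 0, such as 1810058I24Rik at -0.05. Gm11974 (101 and 110 per kb), 1810058I24Rik (103 and 104), 1700110K17Rik (91.8 and 102) and A930001C03Rik (91.0 and 84.8) completed these 10. There is no spread over libraries to say which of the neighbours in this order differ.

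Lower levels were found for other lincRNAs with described functions. Pvt1, the neighbour of the oncogene Myc, had 402 and 453 mean counts, or 71.8 and 81.0 per kb. Its gap to Myc in mm9 is 47613 bases, and Myc had 687 and 816 mean counts. Oip5os1 had 542 and 491 mean counts, or 65.3 and 59.2 per kb. Trp53cor1, a p53-induced lincRNA whose nearest coding gene is the p53 target Cdkn1a, had 172 and 164 mean counts. Jpx and Ftx, both noncoding genes of the X-inactivation centre, had only 12.3 and 13.3 and 8.54 and 9.49 mean counts per kb.

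**Figure D1:**
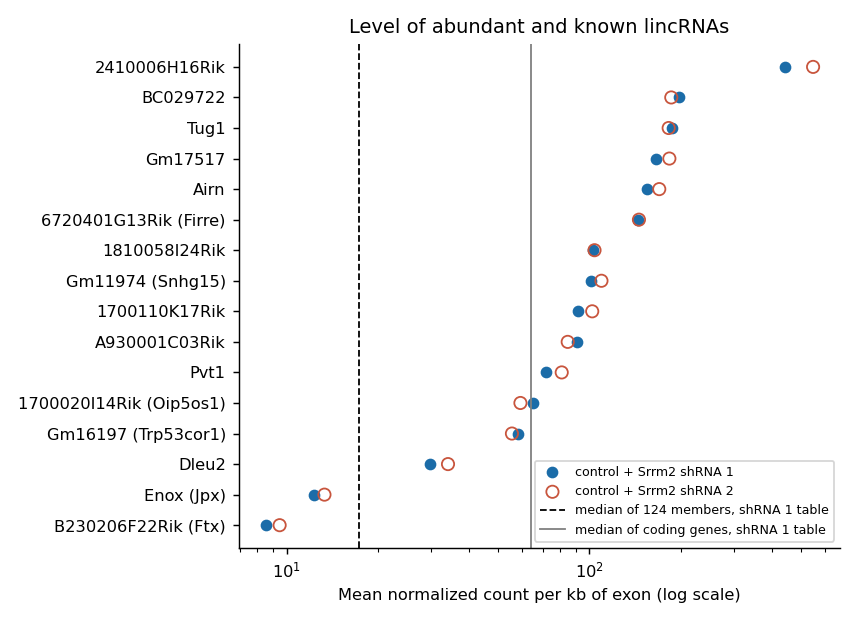
Mean normalized count per kb of exon (log scale) of the 10 most abundant members and of all members on the list of lincRNAs with known roles, in the table of control and Srrm2 shRNA 1 (filled) and that of control and Srrm2 shRNA 2 (open). 2410006H16Rik lies at 443 and 547, the others fall between the member median of 17.3 (dashed) and 198, and Jpx and Ftx lie below that median.

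On the list of 45 symbols of lincRNAs with known roles, some of them names of the same gene, 9 were members: Tug1, Airn, Firre, Pvt1, Oip5os1, Trp53cor1, Dleu2, Jpx and Ftx. Their centred log2 ratios ran from -0.21 for Oip5os1 to 0.13 for Dleu2. None of the 9 passed the limits used below, 25% higher or 20% lower in the shRNA 2 table. Of all genes past the minimum, only 3.11% were past the limit for higher and 3.87% past that for lower. With such shares, none past a limit among 9 genes does not set them apart. Tug1 was at -0.11, Trp53cor1 at -0.14 and Firre at -0.06. On the other side stood Jpx at 0.05, Airn at 0.06, Ftx at 0.08 and Pvt1 at 0.11. The largest of these, for Oip5os1, gives a lower bound of 1.16-fold between the hairpin groups, if the control libraries are shared. Since the bounds are lower ones, larger folds between the hairpin groups remain possible for each of the 9.

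Over all members the pooled means were centred alike in both tables. The median centred log2 ratio, shRNA 2 over shRNA 1 table, was 0.004 over the 124 members and 0.003 over all 10652 genes past the minimum. The spread over genes (SD) was 0.21 for members and 0.18 for all genes. At equal level the members were not more spread. At geometric mean counts of 20 to 50, 50 to 100 and 100 or more, their SD was 0.239, 0.204 and 0.155. All genes at these levels had 0.260, 0.222 and 0.156. Above 0 lay 64 of 124 members (51.6%), beside 50.9% of all genes.

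Counted were members at least 25% higher, or at least 20% lower, in the shRNA 2 table after centring, which is the same fold either way. Of the 124, 5 were past the limit for higher (4.03%), beside 3.11% of all genes, and 7 were past that for lower (5.65%), beside 3.87% of all genes. Members with low counts made up most of these 12. With a geometric mean count of 20 to 50, 8 of 56 members passed either limit, beside 16.5% of all genes at that level. From 50 to 100 it was 3 of 36, beside 11.5%, and at 100 or more it was 1 of 32, beside 4.66%. Read against genes of the same level, the members' shares (14.3%, 8.33% and 3.12%) were no higher than the background.

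**Figure D2:**
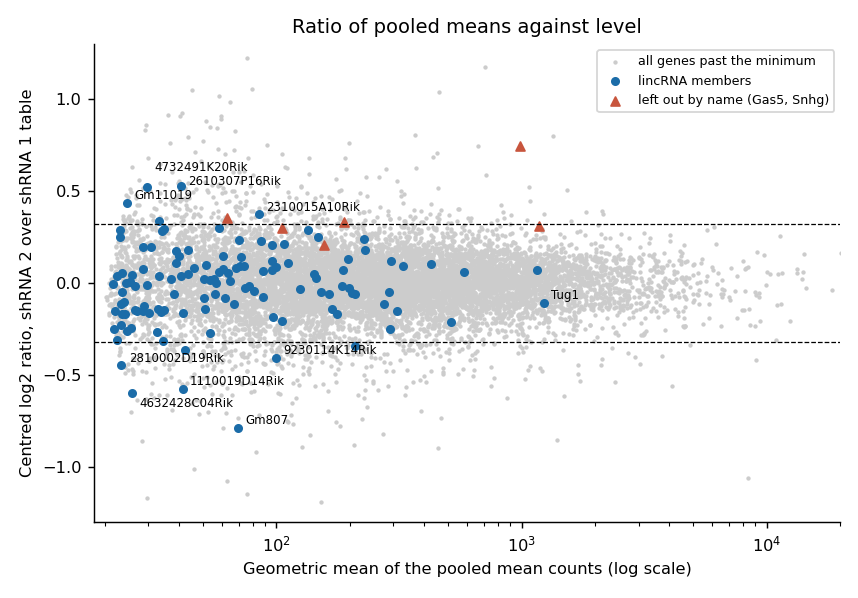
Centred log2 ratio of the pooled means, shRNA 2 over shRNA 1 table, against the geometric mean of both pooled means (log scale) for all genes past the minimum (grey), the 124 members (blue) and the lincRNAs left out by name (triangles), with dashed lines at the limits of 25% higher and 20% lower. Members scatter around 0 and narrow toward higher counts, with Gm807 lowest at -0.79, and 15 genes lie outside the axes.

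Gm807 stood lowest of all members. Its mean normalized count was 89.7 in the shRNA 1 table and 54.5 in the shRNA 2 table, a centred log2 ratio of -0.79. The mean of the shRNA 1 libraries was hence at least 1.73 times that of the shRNA 2 libraries, if the control libraries are shared. Gm807 is a gene of 2 exons at chr13:99870661-99877535, whose nearest coding gene past the minimum, Tnpo1, lies 174322 bases away and had a centred log2 ratio of -0.07.

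The next lowest values belonged to members with few counts. 4632428C04Rik had 31.0 and 21.5 mean counts (log2 ratio -0.60). 1110019D14Rik had 49.4 and 34.7 (-0.57) and overlaps Gm3109 on its own strand. 2810002D19Rik, whose start lies 538 bases from that of Ttc17, had 26.6 and 20.4 (-0.45). These levels are close to the minimum, and the ratio then rests on small numbers of reads per library.

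Among the 64 members that reached 50 mean counts in both tables, the lowest after Gm807 were 9230114K14Rik with 112 and 88.2 mean counts (log2 ratio -0.41) and 5830416P10Rik with 229 and 190 (-0.34). The latter is now named Mirt1, for myocardial infarction associated transcript. 9230114K14Rik starts 162 bases from the RNA helicase gene Dhx15, which had 1140 and 1203 mean counts and a log2 ratio of 0.01. Gm14636 on the X chromosome (310 and 273, -0.25), Oip5os1 (542 and 491, -0.21) and Gm4117 (110 and 100, -0.21) followed, none of them past the limit of 20% lower. Gm4117 overlaps Vcan, the gene of the matrix proteoglycan versican, on the opposite strand, and Vcan had 338 and 240 mean counts with a log2 ratio of -0.56.

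At the other end stood 2610307P16Rik, with 33.3 mean counts in the shRNA 1 table and 50.2 in the shRNA 2 table. Its centred log2 ratio of 0.53 gives a bound of at least 1.44-fold higher in shRNA 2 than in shRNA 1, if the control libraries are shared. These counts are low, and 16.5% of all genes at a geometric mean count of 20 to 50 passed either limit. The gene spans chr13:28551903-28977489 and its nearest coding gene past the minimum is Sox4, a transcription factor gene, 63299 bases away. Sox4 had 1813 and 2495 mean counts and a log2 ratio of 0.39, the same sign as its neighbour.

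4732491K20Rik had 24.2 and 36.4 mean counts (log2 ratio 0.52). It starts 137 bases from the kinase gene Map3k4, whose log2 ratio was 0.25. Gm11019, now Lncenc1, had 20.7 and 29.3 (0.44). 2310015A10Rik, with 72.5 and 98.5 mean counts and a log2 ratio of 0.37, was the single member at least 25% higher in the shRNA 2 table among those with at least 50 counts in both. Gm17294 (51.4 and 66.4, 0.30), 4933407K13Rik (119 and 153, 0.29) and Gm16576 (63.3 and 78.1, 0.24) were the next in that direction, together with snoRNA hosts.

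In GENCODE M1, 12 members contained small RNA genes on the same strand, 6 with an annotated miRNA gene and 6 with an annotated snoRNA gene. The search with RefSeq hairpins placed at least 1 hairpin in 8 members. Of these, Nlrc5 (Mir7072) and 2610307P16Rik (Mir6368) are not among the 12, and 2900076A07Rik (Mir1839) is among them as a snoRNA host. snoRNAs guide the chemical modification of ribosomal RNA, and most vertebrate snoRNAs are cut from introns of host transcripts. All 6 snoRNA hosts had a centred log2 ratio above 0, from 0.04 to 0.28 with a median of 0.16, and none passed either limit. In all, 50.9% of genes past the minimum were above 0. Past the limits for higher and lower were 3.11% and 3.87% of them.

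9430008C03Rik, now named Snhg17, had 132 and 164 mean counts (log2 ratio 0.25). 2410006H16Rik had 205 and 253 (0.24), and 2700038G22Rik had 30.2 and 38.4 (0.28). Gm11974, now Snhg15, had 137 and 149 (0.05), 9430037G07Rik had 57.7 and 63.9 (0.08) and 2900076A07Rik had 39.1 and 42.1 (0.04). Snhg15 and Snhg17 remained among the members because the annotation used older symbols for them.

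The hosts left out by name were higher in the shRNA 2 table as well. The 6 lincRNAs left out had log2 ratios from 0.21 for Snhg5 to 0.74 for Snhg1, with a median of 0.32, and 3 of 6 were at least 25% higher, beside 3.11% of all genes. Snhg1 had 742 and 1302 mean counts, Gas5 had 1030 and 1340 and Snhg12 had 54.3 and 72.8. Malat1, by contrast, was at 0.0002 with 334497 and 350695 mean counts, and Neat1 was at 0.09. No library values were used, so whether the hosts differ from other genes was not tested.

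Of the 6 hosts with a miRNA gene in GENCODE M1, 4 were above 0. Dleu2 had 183 and 210 mean counts (log2 ratio 0.13), Ftx 64.9 and 72.1 (0.08) and A330023F24Rik 177 and 195 (0.07). Ttc28 (202 and 204, -0.06), A330076H08Rik (29.1 and 30.2, -0.01) and Mir706 (52.1 and 55.3, 0.02) were the others. The hosts found by the RefSeq hairpins alone lay further out, both past a limit. They were Nlrc5 at -0.36 (47.1 and 38.4 mean counts) and 2610307P16Rik at 0.53 (33.3 and 50.2). Both have a geometric mean count of 20 to 50, where 16.5% of all genes passed either limit. Of the 8 members with a RefSeq hairpin, 5 were above 0. The counts are of host transcripts and say nothing of the mature microRNAs printed above.

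**Figure D3:**
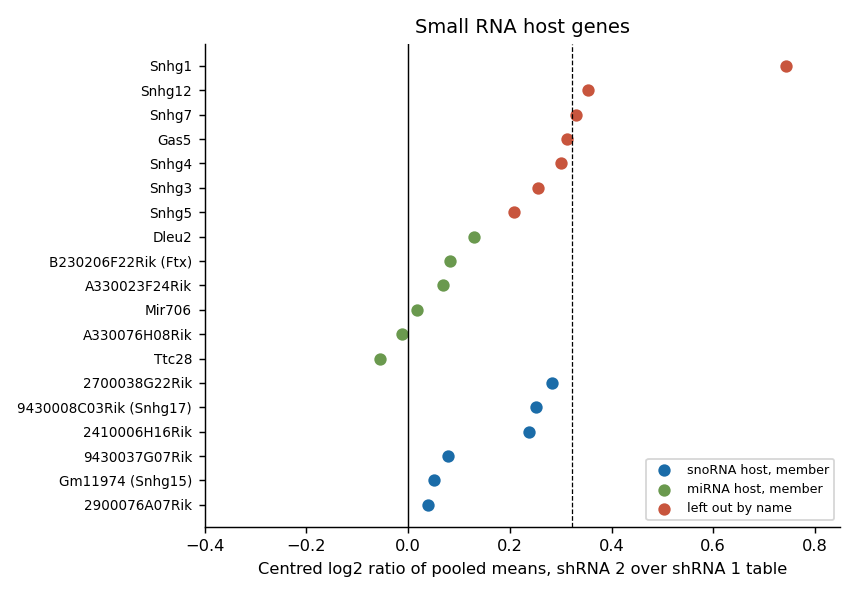
Centred log2 ratio of the pooled means, shRNA 2 over shRNA 1 table, for the 6 members with an annotated snoRNA gene (blue), the 6 with a miRNA gene in GENCODE M1 (green) and the hosts left out by name (red, with Snhg3, which has another gene type), with the limit of 25% higher dashed. All snoRNA hosts among the members lie between 0.04 and 0.28, and the genes left out lie between 0.21 and 0.74.

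In the genome the members often sat beside coding genes. Of 124 members, 52 (41.9%) had the start of a coding gene within 1 kb on the opposite strand, at a median distance of 211 bases. The same held for 40.0% of the other lincRNA genes of the annotation, and for 17.5% of the coding genes past the minimum. Pairs of this kind include Gt(ROSA)26Sor with the SET domain gene Setd5 (32 bases), 1010001N08Rik with the transcription factor gene Gata6 (57 bases), Gm17690 with the splicing factor gene Sf3b4 (82 bases) and B230354K17Rik with Cdc5l (145 bases), another gene of the spliceosome. Pairs whose genes overlap were kept, among them those with Gata6 and Sf3b4.

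For 51 of the 52 the coding partner also passed the minimum, and in 49 of these the partner had the higher level per kb in the shRNA 1 table. The median of the partner over the lincRNA was 6.17-fold. In pairs that overlap, reads cannot be assigned with certainty, and the effect on these levels and on the ratios below was not tested. Gt(ROSA)26Sor had 36.5 mean counts per kb in the shRNA 1 table and Setd5 213. The exceptions were Tug1, at 188 per kb against 126 for Morc2a, and 4632427E13Rik, at 50.9 per kb against 17.8 for Rab30.

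The ratios between tables of these 51 pairs had the same sign in 32 pairs, and Pearson's r was 0.27 across the pairs. Over all 124 members and their nearest coding gene past the minimum, r was 0.20 and Spearman's rho was 0.21. Both genes of a pair were counted in the same libraries, genes are not independent replicates, and such weak correlations are given as a description.

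**Figure D4:**
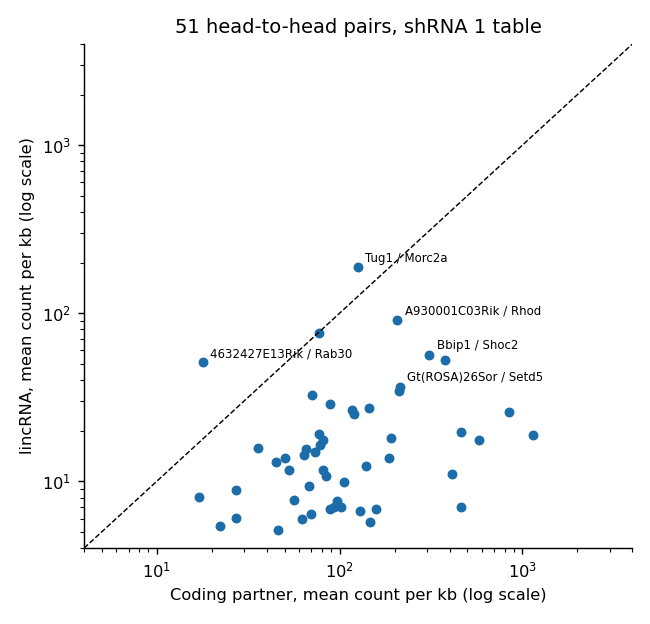
Mean normalized count per kb of exon in the shRNA 1 table (log scales) of the lincRNA against its coding partner for the 51 pairs whose starts lie within 1 kb on opposite strands, with equality dashed. Tug1 and 4632427E13Rik are the pairs above the line, and 49 pairs lie below it.

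The members that started beside a coding gene were lower in level than the rest, with a median of 13.7 against 22.5 mean counts per kb in the shRNA 1 table. Their promoter windows differed as well. At the 5′ end of the gene, 41 of the 52 (78.8%) had a CpG-rich window, meaning an observed over expected CG ratio of at least 0.6 and a GC content of at least 50%, against 23 of the 72 other members (31.9%). TATAAA was in none of the 52 windows and in 19.4% of the other 72. The windows begin 250 bases before the start, and the coding start lay at a median distance of 211 bases. Many of the 52 windows can therefore hold promoter sequence of the coding gene. Of the coding genes past the minimum, 67.7% had a CpG-rich window. How much of the difference comes from shared sequence was not tested.

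Taking the start of the longest transcript instead, which lay inside the gene for 39 members, 62 of 124 (50%) had a CpG-rich window. The share was 70.4% for coding genes past the minimum and 41.4% for other lincRNA genes. The members had a median of 3 exons in their longest transcript, against 9 in the coding genes, and 51 of 124 (41.1%) had 2 exons. Of their 394 introns, 377 (95.7%) began with GT and ended with AG, against 98.8% of 112660 introns of coding genes past the minimum.

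**Figure D5:**
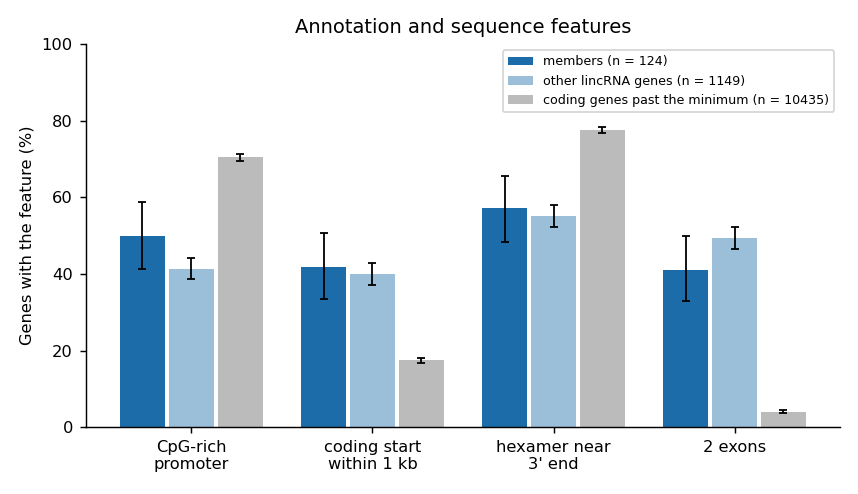
Share of genes (percent) with a CpG-rich window at the start of the longest transcript, a coding start within 1 kb on the opposite strand, a polyadenylation hexamer in the last 50 bases, and 2 exons, for members, other lincRNA genes and coding genes past the minimum. Bars are shares over genes and error bars are Wilson 95% intervals, which cover counting error only; members reach 50%, 41.9%, 57.3% and 41.1%.

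The label of long intergenic noncoding RNA did not hold for every member in another annotation. RefSeq matched 108 of the 124 genes and called 93 of them lncRNA. It called 9 protein coding, 4 transcribed pseudogenes, 1 a pseudogene and 1 a miRNA, while in GENCODE M1 no member had a coding sequence record. The 9 are Nlrc5, BC029722, 1190007F08Rik (now Smim1), 2900053A13Rik (now Pet100), Ttc28, Bbip1, 1810058I24Rik, D930016D06Rik (now Thoc2l) and 9930104L06Rik.

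These 9 had a median of 54.9 mean counts per kb in the shRNA 1 table, against 17.5 for the 93 that RefSeq calls lncRNA. Nlrc5, a regulator of MHC class I genes, had 49 exons and 47.1 and 38.4 mean counts (log2 ratio -0.36), and was the single one of the 9 past a limit. Above 0 were 1 of these 9, namely 9930104L06Rik with 78.0 and 95.9 mean counts (0.23), and 48 of the 93. Of the 12 members past a limit, 11 are lncRNA in RefSeq, as are 93 of all 124 members. A limit was thus passed by 11 of the 93 and by 1 of the 9, which are similar shares.

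Many members were not intergenic once the strand was set aside. In all, 54 of 124 members overlapped the span of a coding gene, 46 of them on the opposite strand and 10 on the same strand, with 2 in both sets. Those on the same strand include Mir706 within Wnk1, Gm17375 within Clasrp, Gm17491 with Slc20a2 and Gm17294 with Dip2c, and which share of their reads came from the coding gene was not tested. The 70 members without any overlap had a median log2 ratio of 0.02. It was -0.08 for the 46 with overlap on the opposite strand and 0.13 for the 10 on the same strand, a difference that was not tested. Gm10060 (274 and 312 mean counts) was the single member with near-identical copies elsewhere in the genome, 2 of them, so its counts are uncertain.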

How the data were processed

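RNA-seq was analysed from 9 libraries in 3 groups. According to the submitters' processing notes and the study's methods, the authors mapped reads with TopHat2 to mm9, counted them with HTSeq on GENCODE M1 genes and compared each hairpin with control in DESeq2 1.8.2. The deposited signal is the mean normalized count per gene over the 6 libraries of each table. The tables also hold the authors' own comparisons (log2 fold changes, standard errors, statistics and p-values), which were not used. Depth per library was not analysed here, and the mean counts summed to 6144608 and 6393456. Columns of per-sample values without a match numbered 0.

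Pooled means were divided by the union of exons and by each other with Python 3.11.15, numpy 2.4.6, pandas 2.3.3 and scipy 1.17.1, with the centring tested on simulated data. Gene models and sequences came from GENCODE M1 and the mm9 genome, current names from RefSeq (GRCm38.p6). Copies at 95% identity over 50% of a transcript were sought with minimap2 2.31-r1302. Named were the 10 most abundant members per kb, 6 in each direction by ratio among those with at least 50 counts and 4 over all, the known lincRNAs, small RNA hosts, genes at the minimum, and the reference genes left out. Promoter windows at the 5′ end of the gene were added after seeing the data. Members and lists were chosen with earlier results of these data known. Items withheld for evaluation are not reported here.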

Additional observations from a re-analysis of the deposited data

How the results depend on the processing

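The minimum set the number of members, which was 197 at a minimum of 10, 64 at 50 and 31 at 100. The count at least 25% higher in the shRNA 2 table rose from 5 to 10 without centring, and the count at least 20% lower went from 7 to 5. The share of all genes past the limits without centring was not computed, so these counts are not a result about lincRNAs. At a fold of 1.1, 25 members (20.2%) were higher and 34 (27.4%) lower, beside 17.2% and 16.8% of all genes. These shares were not split by level, and the difference was not tested. At 1.5 these were 0 and 2 (0% and 1.61% of members), beside 0.507% and 0.582% of all genes. With the limits of 25% higher and 20% lower kept, a minimum of 100 left 0 and 1 of 31 members past them. Of all genes at a geometric mean count of 100 or more, 4.66% passed either limit. The other 18 of 28 alternatives stayed within their limits of change (1.5-fold for counts and levels, 0.1 for log2 medians and correlations, the 95% interval for shares), among them the median log2 ratio from -0.03 to 0.07 and the 64 CpG-rich windows at the 5′ end of the gene, an alternative chosen after seeing the data. No paired analysis was possible because the deposited means pool the libraries, and for the same reason no library could be left out and counting error per library is unknown.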

Other observations

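The lincRNAs came from 20 chromosomes, with 13 on chromosome 11, 12 on chromosome 5 and 10 on the X chromosome. The X-linked members included noncoding genes of the X-inactivation centre, Jpx (41.8 and 45.3 mean normalized counts in the shRNA 1 and shRNA 2 tables) and Ftx (64.9 and 72.1), and Firre (209 and 210). The centred log2 ratios of the X-linked members ran from -0.25 for Gm14636 to 0.29 for 4933407K13Rik. None of the 10 was 25% higher or 20% lower in the shRNA 2 table, beside 3.11% and 3.87% of all genes. At such shares this is no result about the X chromosome.

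Gm14005, now Morrbid, is known as a regulator of its neighbour Bcl2l11, a proapoptotic gene. It had 164 and 165 mean counts, and Bcl2l11, at a gap of 33446 bases, had 347 and 401 with a log2 ratio of 0.14.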
